A study of Mus musculus with 19 samples.

Results

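The transcripts described here are those of 5 transcription factors that carry the signal of the circadian clock to other genes, namely Dbp, Tef, Hlf, Bhlhe40 and Bhlhe41. Members were chosen by symbol: every probe whose RefSeq accession belongs to 1 of the 5 genes was taken, which gave 7 of the 55681 probes on the array. All 7 were bright enough to be tested, among 31119 tested probes in all. Dbp and Bhlhe41 had a pair of probes each, and the other genes had 1.

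RNA came from the right lobe of the lung of 18 adult male MutaMouse animals (a transgenic strain on a BALB/C-DBA/2 background that carries a bacterial reporter gene for mutation assays), about 12 weeks old. All mice were gavaged on 28 consecutive days, and lungs were removed 72 h after the last dose. The D0 group (5 mice) received olive oil, and D1 (4 mice), D2 (5 mice) and D3 (4 mice) received 15, 30 and 60 mg benzo[a]pyrene (BaP) equivalents/kg-day of the 8PAH-Mix, a blend of 8 polycyclic aromatic hydrocarbons, in the same vehicle. Lung RNA in red was hybridized with a common reference RNA from 11 mouse cell lines in green on 19 arrays, so each level below is a log2 ratio of lung over reference for 1 probe. The reference is not lung, and levels of different probes cannot be ranked against each other. D3 mouse 35 had a pair of arrays, which were averaged. The array labelled D2 mouse 23 carries a number that falls among those of D1, and in the study's methods it is D1, not D2, that is the larger of these groups. It was kept in D2 as labelled. The mice were kept on a regular light and dark cycle, and the hour at which lungs were removed is not given in the sources used here.

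In the mammalian clock, the activators ARNTL and CLOCK bind E-boxes and switch on the genes of their own repressors, the PER, CRY and REV-ERB proteins. DBP, TEF and HLF form the PAR bZIP family, activators that bind D-box elements, while NFIL3 binds the same elements and represses. BHLHE40 and BHLHE41 (also called DEC1 and DEC2) are repressors that bind E-boxes. In peripheral organs such as lung, Dbp has one of the strongest daily rhythms of any transcript, and its peak lies opposite that of Arntl.

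Sequence upstream of the members' start sites was read from RefSeq promoters of mouse build GRCm38.p6, each with 250 bases before and 50 after the start site. Promoters were found for 4 of the 5 genes (Bhlhe40 had no entry), and Tef had a pair of starts. The canonical E-box, CACGTG, which reads the same on either strand, was present before both starts of Tef and before Bhlhe41. Among all 32817 promoters of this length, 7.15% hold it. The windows below are shown because they hold this motif, in 1 gene that was called (Tef) and 1 that was not (Bhlhe41). The difference between these 2 genes in their response was not tested. Each is 60 bases, 5′ to 3′ on the gene's strand, with the E-box in capitals.
Tef, upstream start, chr15:81802519-81802578, plus strand: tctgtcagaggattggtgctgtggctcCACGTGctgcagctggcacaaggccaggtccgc
Tef, downstream start, chr15:81811249-81811308, plus strand: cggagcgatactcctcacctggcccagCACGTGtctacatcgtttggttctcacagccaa
Bhlhe41, chr6:145865541-145865600, minus strand: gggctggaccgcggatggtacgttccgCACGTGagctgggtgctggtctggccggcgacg
In these windows the E-box began at positions -127 and -138 from the Tef starts and at -153 from the Bhlhe41 start.

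The Dbp and Hlf promoters held no CACGTG on either strand. They did hold the core of the element for the aryl hydrocarbon receptor (AHR), which senses such hydrocarbons. Its letters are GCGTG, searched on either strand, and 32.4% of all promoters hold it. Dbp had 2 copies, at positions -193 and -74, and Hlf had 4. The 250 bases before each start are given because these genes moved with Tef but lack its motif here, with this core in capitals in either orientation. The Dbp start used lies inside the RefSeq span of that gene (45705100 to 45710203). Part of the Dbp stretch, with the core at -74, is therefore within the gene and not upstream of it.
Dbp, chr7:45704997-45705246, plus strand: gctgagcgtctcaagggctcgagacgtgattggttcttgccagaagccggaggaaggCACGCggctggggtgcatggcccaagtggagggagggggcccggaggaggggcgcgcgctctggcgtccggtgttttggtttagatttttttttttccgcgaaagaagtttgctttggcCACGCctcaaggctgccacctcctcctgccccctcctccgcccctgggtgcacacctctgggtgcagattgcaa
Hlf, chr11:90390918-90391167, minus strand: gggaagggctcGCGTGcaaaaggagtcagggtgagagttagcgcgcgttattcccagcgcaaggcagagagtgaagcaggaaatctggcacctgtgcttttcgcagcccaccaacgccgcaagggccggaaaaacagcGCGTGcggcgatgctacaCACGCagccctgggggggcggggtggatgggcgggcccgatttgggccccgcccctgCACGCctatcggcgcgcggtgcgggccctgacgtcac
Over the full promoter of 250 bases before and 50 after the start, beyond the stretches printed above, Bhlhe41 had 2 copies of this core, at -119 and -66, the downstream Tef start had 1 and the upstream Tef start had none. The D-box (TTATGTAA or TTACGTAA on either strand, in 1.05% of promoters), the related CACGTT (4.69%) and the AGGTCA element of the ROR and REV-ERB receptors (16.3%) were in none of these full promoters. These matches describe letters in a short window and no binding was measured.

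Before the members, the samples as a whole were checked. The median spot signal per array was 114 to 152 in red and 65 to 93 in green. The arrays lay on 3 slides, each with all 4 groups, and slide 3 held a single array per group (mice 5, 25, 23 and the later array of mouse 35). On every slide the column of an array followed its dose, and these cannot be told apart. All 8 lung markers on the list, among them Sftpc and Scgb1a1, were well above background in all 18 mice, and none (0 of 8) was called by limma at any dose. At an unadjusted p under 0.05 were 1, 0 and 1 of them, and 19.8%, 14.7% and 26.1% of all tested probes, at D1, D2 and D3. The median log2 fold change of these lung markers was -0.386, -0.0635 and -0.337. Of the 4 natural killer cell markers, Gzma was called lower at each dose (by fitted values of -1.60, -2.13 and -3.07) and Prf1 at D3 (-0.66), while Ncr1 and Klrb1c were not called, beside 0.463%, 0.193% and 1.22% of all tested probes called lower at D1, D2 and D3. Of the 4, 1, 2 and 3 passed the adjusted p alone and 3, 4 and 4 had an unadjusted p under 0.05 at D1, D2 and D3. Ncr1 was well above background in 5, 3, 3 and 1 mice of D0, D1, D2 and D3 and so was tested through D0, where it is highest, and Klrb1c was well above background in 1 of 4 D3 mice. The mean log2 ratio of the 4, these dim genes included, was 1.33 to 2.17 in D0, 0.75 to 1.43 in D1, 0.51 to 1.16 in D2 and 0.35 to 0.64 in D3. The mean log2 ratio of the heart muscle markers per mouse ranged from 0.45 to 4.41 among dosed mice and from 2.35 to 3.02 in D0, with 0 of 6 called (1, 0 and 0 at an unadjusted p under 0.05). Of 3 tested adipose markers, Cidec was called lower at D3 (-0.71, limma adjusted p = 0.0328). By limma 0 of 7 T and B cell markers (0, 3 and 3 at an unadjusted p under 0.05) and 0 of 3 tested red blood cell markers (0 at each dose) were called, and of 4 liver markers 1 was bright enough to be tested and was not called. The part of any of these lists in the results below was not tested. In lung tissue of mixed cells, a change in the share of cells that express a gene and a change in RNA per cell cannot be told apart.

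Of the 5 genes, the PAR bZIP activators Dbp, Tef and Hlf rose at D2 and D3, Dbp rose at D1 as well, Bhlhe40 rose at D2 and passed the adjusted p but not the fold threshold at D3, and Bhlhe41 was not called. A call needed both a change of at least 1.5-fold and a limma p, adjusted after Benjamini-Hochberg over all tested probes, no higher than 0.05. Of the 7 member probes, 2 were called higher at D1 (Dbp alone), 5 at D2 (Dbp, Tef, Hlf and Bhlhe40) and 4 at D3 (Dbp, Tef and Hlf), and 0 were called lower. Among all tested probes, 0.591% were called higher at D1, 0.434% at D2 and 1.2% at D3. The median log2 fold change of the 7 probes was 0.39, 0.94 and 0.71 at the 3 doses, where that of all tested probes was 0.00638, -0.00379 and -0.00235. At 1 dose or more, 5 of the 7 member probes were called, against 2.84% of all tested probes.

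**Figure D1:**
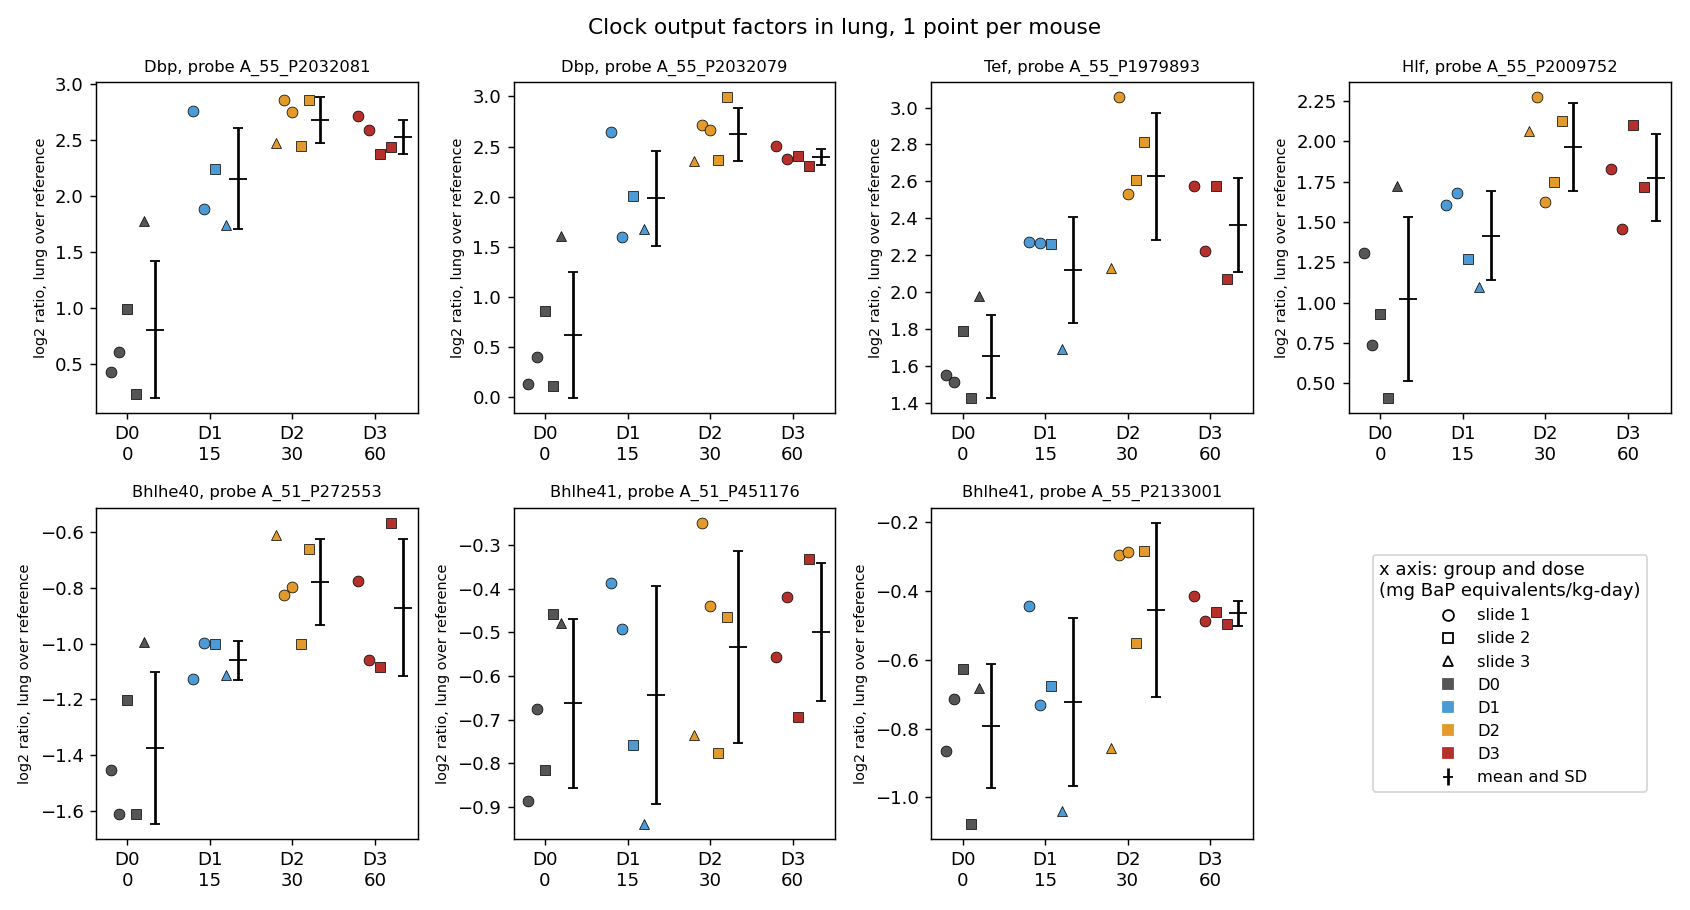
Log2 ratio of lung over reference (y axis) by group and dose in mg BaP equivalents/kg-day (x axis) for each of the 7 probes, with 1 point per mouse, marker shape by slide and bars for the group mean and SD. Dbp lay between 0.24 and 1.78 in D0 and between 2.38 and 2.86 in D2 and D3 on its brighter probe. All groups overlapped on the brighter Bhlhe41 probe, while on the second all 4 D3 mice lay above every D0 mouse.

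Dbp (NM_016974, chromosome 7, 45705100 to 45710203), which encodes the D-box activator of the albumin promoter, had the largest response of the 5. On its brighter probe (A_55_P2032081), D0 mice 1 to 5 had log2 ratios of 0.43, 0.61, 0.99, 0.24 and 1.78. D1 mice 21, 22, 24 and 25 had 2.76, 1.89, 2.25 and 1.74. D2 mice 23, 26, 28, 29 and 30 had 2.48, 2.86, 2.76, 2.45 and 2.86. These values show 4 low vehicle mice and 1, mouse 5, at the level of the lower D1 mice. D3 mice 31, 32, 34 and 35 had 2.71, 2.60, 2.38 and 2.44. Every D2 and D3 mouse was above every D0 mouse, and 3 of 4 D1 mice were, with D1 mouse 25 just under D0 mouse 5.

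The group mean of Dbp was 0.81 ± 0.61 in D0 (SD, n = 5), 2.16 ± 0.45 in D1 (SD, n = 4), 2.68 ± 0.20 in D2 (SD, n = 5) and 2.53 ± 0.15 in D3 (SD, n = 4). The spread of Dbp was thus widest in vehicle mice. Dbp rose by 1.35 at D1 (SE 0.24, limma adjusted p = 0.00353), a 2.55-fold change. It rose by 1.87 at D2 (SE 0.23, limma adjusted p = 0.000118), or 3.66-fold, and by 1.72 at D3 (SE 0.24, limma adjusted p = 0.000172), or 3.30-fold. By size of change, Dbp ranked 17, 11 and 24 among the 31119 probes at D1, D2 and D3. Probes called higher at all 3 doses made up 0.235% of those tested. The D1 call was lost under median centring in place of loess (1.63, limma adjusted p = 0.114), where the D2 and D3 calls held.

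The second Dbp probe (A_55_P2032079) lay far from the other on the array, in row 298 against row 68, and gave the same picture. Its log2 ratio was 0.13, 0.40, 0.86, 0.10 and 1.60 in D0 mice 1 to 5. It was 2.65, 1.60, 2.01 and 1.68 in the D1 mice, in the mouse order above. In D2 it ran from 2.36 to 2.99 and in D3 from 2.31 to 2.50. The changes in Dbp on this probe were 1.37, 2.00 and 1.78, all called. Over the 18 mice the pair of Dbp probes correlated at r = 0.994, and at 0.971 after each group's mean was removed, so the differences between mice of a group were shared by the probes. Sharing a transcript and a hybridization, they are not independent measurements.

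Tef (NM_017376, chromosome 15, 81802673 to 81826863), thyrotroph embryonic factor, was called higher at D2 and D3. Its D0 mice had log2 ratios of 1.55, 1.52, 1.79, 1.43 and 1.98. The D1 mice had 2.27, 2.26, 2.26 and 1.69. D1 mouse 25 stood apart from the other 3 D1 mice, which lay close together. The D2 mice had 2.13, 3.06, 2.53, 2.61 and 2.81 and the D3 mice 2.58, 2.22, 2.58 and 2.07. Every D2 and D3 mouse was again above every D0 mouse, and 3 of 4 D1 mice were. Tef rose by 0.98 at D2 (SE 0.16, limma adjusted p = 0.00269) and by 0.71 at D3 (SE 0.17, limma adjusted p = 0.0102), or 1.97-fold and 1.64-fold. At D1 it was 0.47 above D0 (SE 0.17, limma adjusted p = 0.123) and was not called. Under median centring the D2 and D3 calls were lost (1.14 and 0.89).

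Hlf (NM_172563, chromosome 11, 90336535 to 90390917), hepatic leukemia factor, overlapped more between groups. Its D0 mice had log2 ratios of 1.31, 0.74, 0.93, 0.41 and 1.73. The D1 mice had 1.61, 1.68, 1.27 and 1.098, all below D0 mouse 5. The D2 mice had 2.06, 2.27, 1.62, 1.75 and 2.13, and the D3 mice had 1.83, 1.46, 2.10 and 1.72. Of these, 4 of 5 D2 mice and 2 of 4 D3 mice were above every D0 mouse. Hlf rose by 0.94 at D2 (SE 0.20, limma adjusted p = 0.0161) and by 0.75 at D3 (SE 0.21, limma adjusted p = 0.0245). At D1 the difference was 0.39 (SE 0.21, limma adjusted p = 0.32). The D3 call of Hlf was lost with the scanner software's processed signals (0.79), under median centring, and without any 1 of D0 mice 2, 3 or 4 or D3 mice 31, 34 or 35, where the change lay between 0.60 and 0.77. Median centring also ended the D2 call (1.03).

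Bhlhe40 (NM_011498, chromosome 6, 108660629 to 108666925), an E-box repressor that is also induced by many stimuli outside the clock, had its only call at the threshold. Its D0 mice had log2 ratios of -1.45, -1.61, -1.20, -1.61 and -0.99. The D1 mice had -1.13, -0.998, -1.0 and -1.11, within the range of D0. The D2 mice had -0.61, -0.83, -0.80, -1.002 and -0.66, and the D3 mice had -0.78, -1.06, -1.08 and -0.57. D0 mouse 5 was again the highest vehicle mouse, and 4 of 5 D2 mice and 2 of 4 D3 mice were above it. Bhlhe40 rose by 0.59 at D2 (SE 0.12, limma adjusted p = 0.0128), which is 1.51-fold. At D3 it was 0.50 above D0 (SE 0.13, limma adjusted p = 0.0144), which is 1.42-fold and short of the fold threshold. The D1 difference was 0.31 (SE 0.13, limma adjusted p = 0.173). The D2 call fell just under 1.5-fold with the red channel alone (0.56), with mouse 23 counted in D1 (0.55) and without any 1 of D0 mice 1, 2 or 4 or D2 mice 23 or 30 (0.53 to 0.57), and the adjusted p passed in each of these. The adjusted p alone was met by 4.71%, 2.06% and 12.3% of all tested probes at D1, D2 and D3. Under median centring the D2 value was 0.77 with an adjusted p of 0.928. At D3, Bhlhe40 passed with processed signals (0.60) and without D0 mouse 5 (0.60).

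Bhlhe41 (NM_024469, chromosome 6, 145858243 to 145865420), the close relative of Bhlhe40, was not called at any dose on either probe. Its pair of probes had the lowest red signals of the 7, at 100 to 233 against 385 or more, which describes the probes and not the level of the transcript. On the brighter probe (A_51_P451176), the D0 mice had log2 ratios of -0.89, -0.68, -0.82, -0.46 and -0.48. The D1 mice had -0.39, -0.49, -0.76 and -0.94, the D2 mice -0.74, -0.25, -0.44, -0.78 and -0.47, and the D3 mice -0.56, -0.42, -0.69 and -0.33. All groups overlapped. The difference from D0 was 0.02 at D1 (95% interval -0.25 to 0.29), 0.13 at D2 (-0.13 to 0.39) and 0.16 at D3 (-0.11 to 0.44), so changes of 1.5-fold lay outside each interval with loess ratios. With processed signals the D2 and D3 values were 0.33 and 0.35, also not called. The D1 value turned negative with the red channel alone.

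The second Bhlhe41 probe (A_55_P2133001) disagreed in part with the first. Its log2 ratio was -0.87, -0.71, -0.63, -1.08 and -0.68 in the D0 mice. In the D3 mice it was -0.42, -0.49, -0.46 and -0.50, so that all 4 lay above every D0 mouse. In D1 it ran from -1.04 to -0.44 and in D2 from -0.86 to -0.28. The differences from D0 were 0.07, 0.34 (limma adjusted p = 0.166) and 0.33 (limma adjusted p = 0.102) at the 3 doses, and the D2 and D3 intervals reached 0.59. With processed signals these values were 0.88 at D2 and 0.89 at D3, past 1.5-fold but not past the adjusted p. The pair of Bhlhe41 probes correlated at r = 0.561 over the mice. Complete separation from D0 was seen for 0 of 7 member probes at D1, 3 at D2 and 4 at D3, where 4.71%, 2.48% and 7.42% of all tested probes had every dosed mouse above every D0 mouse.

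**Figure D2:**
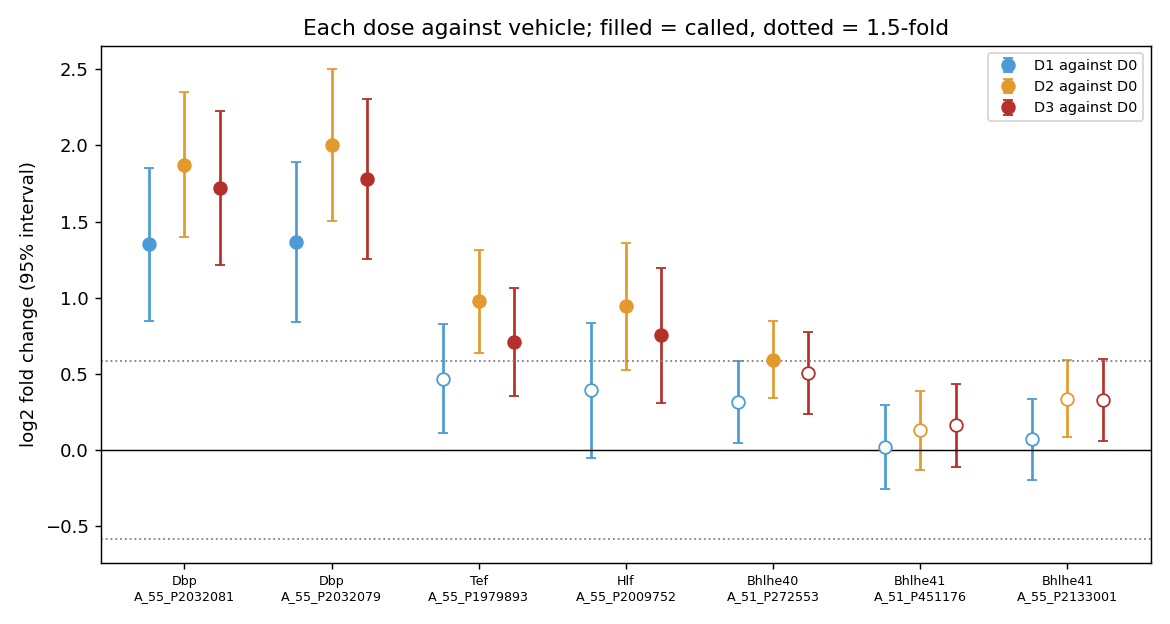
Log2 fold change of each dose against D0 (y axis) for each probe (x axis), with 95% intervals, filled points for called changes and dotted lines at 1.5-fold. Dbp lies at 1.35 to 2.00 on its pair of probes, Tef and Hlf at 0.39 to 0.98, Bhlhe40 at 0.31 to 0.59 and Bhlhe41 at 0.02 to 0.34.

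Although the top dose was 4 times the lowest, no member was called between doses. In D2 against D1, the main probe of each gene was higher by 0.11 (Bhlhe41) to 0.55 (Hlf), with Dbp at 0.52 (limma adjusted p = 0.491) and Tef at 0.51 (limma adjusted p = 0.345). In D3 against D2, Dbp, Tef, Hlf and Bhlhe40 were lower by fitted values of -0.15, -0.27, -0.19 and -0.09, with limma adjusted p between 0.584 and 0.867, and Bhlhe41 differed by 0.03. Over all tested probes, 0% were called by limma for D2 against D1, 0.106% for D3 against D2 and 0.145% for D3 against D1. At an unadjusted limma p under 0.05 in D2 against D1 were 6 of the 7 member probes (all but the brighter Bhlhe41 probe) and 9.8% of all tested probes, and none (0 of 7) of the member probes in the other comparisons between doses. By a linear trend over dose, 4 of 7 member probes were called, those of Dbp, Tef and Hlf, against 0.913% of all probes called in the rising direction. The fitted trend from D0 to D3 was 1.52 for Dbp, 0.68 for Tef and 0.75 for Hlf. That of Bhlhe40 was 0.48 (limma adjusted p = 0.0236), short of 1.5-fold.

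The members did not change by the same amount. For each mouse the log2 ratio of 1 gene was subtracted from that of another, and each dose was compared with D0 by a two-sided exact permutation test, in 6 pairs of genes and 18 tests adjusted together. These pairs were chosen after the changes were known. The rise of Dbp exceeded that of Tef by 0.88 at D1, 0.90 at D2 and 1.01 at D3 (exact permutation, adjusted p = 0.0476, 0.0286 and 0.0476). It exceeded that of Hlf by 0.96, 0.93 and 0.97 (exact permutation, adjusted p = 0.0286 at each dose). Against Bhlhe40 the excess was 1.03, 1.28 and 1.22, and against Bhlhe41 it was 1.33, 1.74 and 1.56, with the same adjusted p of 0.0286 throughout by exact permutation. Bhlhe41 is taken here by its brighter probe alone. Its red signal was 120 to 233 against 6390 to 54900 for Dbp, without background subtraction, and the part of this dim signal in the excess was not tested. In these 12 comparisons the excess of Dbp kept its sign without any 1 mouse, and the Hlf comparison at D1 missed the threshold with the red channel alone (0.83, exact permutation adjusted p = 0.0571). The smallest p that 5 against 4 mice can reach is 0.0159, and that of 5 against 5 is 0.00794. Tef and Hlf differed by 0.08, 0.03 and -0.04 in their change (exact permutation, adjusted p = 0.822, 0.937 and 0.891). Bhlhe40 exceeded Bhlhe41 by 0.30, 0.46 and 0.34 (exact permutation, adjusted p = 0.229, 0.0549 and 0.143), and the D2 difference passed with 4 alternative scalings (0.37 to 0.59).

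The relation of each member to Arntl (NM_007489, chromosome 7, 113178471 to 113314126), the clock activator that pairs with CLOCK, was then taken mouse by mouse. D0 mice 1 to 5 had Arntl log2 ratios of 0.11, 0.13, -0.31, 0.43 and -0.60. The D1 mice had -1.41, -0.41, -0.80 and -0.05, the D2 mice -0.54, -1.86, -1.49, -1.22 and -1.62, and the D3 mice -1.25, -1.35, -1.32 and -1.32. Within D0, D1 and D2, the mice with low Arntl tended to have high Dbp. In D0, mouse 4 had the highest Arntl and the lowest Dbp, and mouse 5 the lowest Arntl and the highest Dbp. In D1, mouse 21 had the lowest Arntl and the highest Dbp, and mouse 25 the highest Arntl and the lowest Dbp. In D2, mouse 26 had the lowest Arntl and the highest Dbp, Tef and Hlf. In D3, where Arntl spanned only -1.35 to -1.25, no such order was seen, and mouse 31 was highest for both genes.

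**Figure D3:**
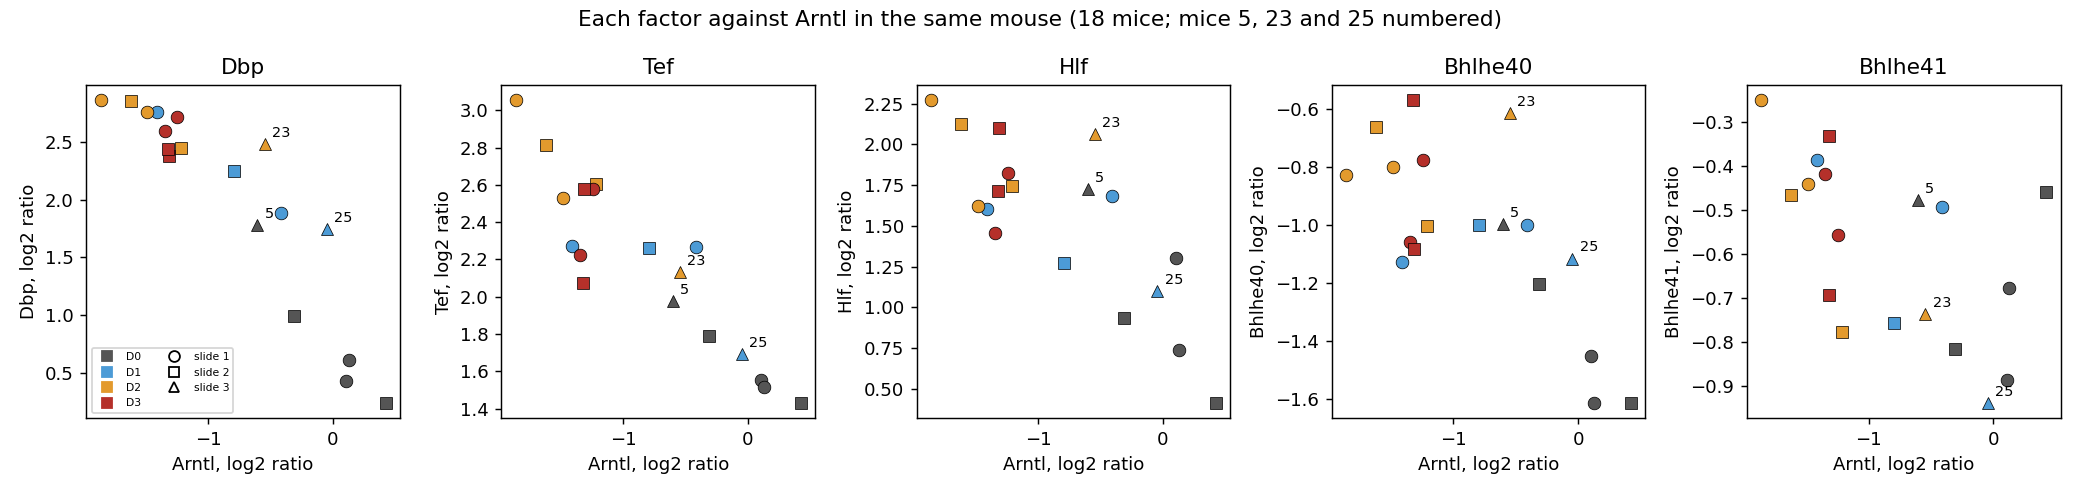
Log2 ratio of each member (y axis) against that of Arntl in the same mouse (x axis), with 18 mice, color by group and marker shape by slide. Dbp and Tef fall along a line as Arntl rises (r = -0.916 and -0.911), D0 mouse 5 sits among dosed mice and D1 mouse 25 beside vehicle mice, and Bhlhe41 is widely scattered (r = -0.566).

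Over the 18 mice, Dbp and Arntl correlated at r = -0.916 (rho = -0.932) with a permutation p of 1e-05 for each, the smallest that 100000 permutations can give, and an adjusted p of 2.5e-05 for r over the 5 genes. Tef had r = -0.911 (rho = -0.831, permutation p = 1e-05 and 6e-05, adjusted p of r = 2.5e-05). Hlf had r = -0.788 (rho = -0.680, permutation p = 0.00016 and 0.00277, adjusted p of r = 0.000267). Bhlhe40 had r = -0.724 (rho = -0.608, permutation p = 0.00053 and 0.00856, adjusted p of r = 0.000663), and Bhlhe41 had r = -0.566 (rho = -0.641, permutation p = 0.0153 and 0.00502, adjusted p of r = 0.0153). Without D0 mice 2 and 4, which lay farthest from the median of Arntl, r was -0.869, -0.869, -0.653, -0.549 and -0.754 in the same order, and rho of Bhlhe40 was then -0.441 (permutation p = 0.089). Under median centring r fell to -0.455 for Dbp, -0.315 for Tef, -0.269 for Hlf and -0.109 for Bhlhe41, it was 0.02 for Bhlhe40, and none (0 of 5) passed.

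Since Arntl and several members differed between dose groups, the relation was also taken with group means removed. With each group's mean removed, r was -0.825 for Dbp (permutation adjusted p = 0.0002) and -0.781 for Tef (permutation adjusted p = 0.000925), and that of Hlf (-0.459), Bhlhe40 (-0.230) and Bhlhe41 (-0.550) did not pass, with permutation adjusted p of 0.096, 0.323 and 0.0893. In the 13 dosed mice alone, r was -0.897 for Dbp, -0.785 for Tef, -0.564 for Hlf, -0.253 for Bhlhe40 and -0.723 for Bhlhe41. With both group and slide means removed, r was -0.942 for Dbp, -0.772 for Tef, -0.572 for Hlf, -0.483 for Bhlhe40 and -0.493 for Bhlhe41, given without a test. The relation was also taken within slides, each of which holds all 4 groups, so these values include the differences between doses. Within slide 1 (8 mice) Dbp had r = -0.960 (exact permutation adjusted p = 0.00198), and within slide 2 (7 mice) r = -0.976 (exact permutation adjusted p = 0.00347). Tef had -0.901 and -0.940, Hlf -0.775 and -0.952 and Bhlhe40 -0.831 and -0.904 on these slides, all past the threshold by Pearson's r. By Spearman's rho, Dbp passed on both slides, Tef on slide 1 alone (slide 2 exact permutation adjusted p = 0.0828), Hlf on slide 2 alone (slide 1 exact permutation adjusted p = 0.12) and Bhlhe40 on neither (exact permutation adjusted p = 0.132 and 0.0569). Bhlhe41 had -0.875 on slide 1 and -0.119 on slide 2 (exact permutation adjusted p = 0.78), so the relation of its brighter probe did not hold on both. The second Bhlhe41 probe was not set against Arntl. Slide 3 had too few mice for a value.

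The members also differed by slide in a way that touched the size of their response. On slide 3 the only D0 animal was mouse 5, the highest vehicle mouse for Dbp, Tef, Hlf and Bhlhe40. The dose minus D0 difference of Dbp was 1.80, 2.29 and 2.14 at D1, D2 and D3 on slide 1, and 1.63, 2.04 and 1.78 on slide 2. On slide 3 it was -0.04, 0.70 and 0.69. Tef differed by 0.73, 1.26 and 0.87 on slide 1 and by 0.65, 1.102 and 0.78 on slide 2, against -0.28, 0.16 and -0.02 on slide 3. Hlf differed by 0.62, 0.93 and 0.62 on slide 1, by 0.60, 1.26 and 1.12 on slide 2 and by -0.63, 0.34 and 0.22 on slide 3. For Bhlhe40 these values were 0.47, 0.72 and 0.62, then 0.41, 0.58 and 0.55, then -0.12, 0.38 and 0.49, so its D3 difference was alike on all slides. For the brighter Bhlhe41 probe they were 0.34, 0.44 and 0.29, then -0.12, 0.02 and 0.16, then -0.46, -0.26 and 0.08. The slide 3 values rest on 1 mouse per group and cannot tell mouse from slide. With slide as a block, the changes of Dbp were 1.33, 1.87 and 1.75, close to those above, and no member call changed. Without the mice that lie on slide 3 alone, Dbp rose by 1.73, 2.17 and 1.96, and Tef was also called at D1 (0.69, limma adjusted p = 0.0189).

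Among the members, the PAR bZIP genes followed each other across mice, described without a test. Dbp and Tef had r = 0.874 over the 18 mice, Tef and Hlf 0.846 and Dbp and Hlf 0.818, and with group means removed these were 0.623, 0.596 and 0.569. Bhlhe40 had r = 0.846 with Dbp and 0.801 with Hlf, which became 0.534 and 0.50 within groups, and 0.705 with Tef, which became 0.136. Bhlhe40 and Bhlhe41 were the least alike of the family pairs, at 0.344 between their brighter probes and 0.559 with the second Bhlhe41 probe. That second probe had r = 0.824 with Tef, 0.74 with Dbp and 0.651 with Hlf. With group means removed these became 0.763, 0.697 and 0.348, and the Tef and Dbp values exceeded those of the PAR bZIP pairs. The brighter Bhlhe41 probe had 0.44 with Tef and with Dbp and 0.334 with Hlf, so the pair of Bhlhe41 probes differed here as well. All these values come from ratios on the same arrays.

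Among 14757 genes compared over the 18 mice, the gene most unlike Dbp was Arntl, both in the log2 ratios and with group means removed. The genes most like Dbp were Tspan4 (r = 0.938), a tetraspanin, Nr1d2 (0.936), which encodes the clock repressor REV-ERB beta, Lefty1 (0.907), a secreted antagonist of Nodal, and Mthfd1l (0.899), a mitochondrial folate enzyme. For Tef they were Mthfd1l (0.915), Mknk2 (0.907), a kinase of translation factor eIF4E, Nr1d2 (0.903) and Per3 (0.902), a clock repressor. Spon2 (-0.921), a secreted matrix protein, and Arntl were the most unlike Tef. For Hlf, Mthfd1l (0.897) led and Adm (-0.911), the vasodilator peptide adrenomedullin, was most unlike. For Bhlhe40, Ermard (0.864), Tspan4 (0.848) and Wee1 (0.842) led, and for Bhlhe41 the closest was Vti1a at 0.771. With group means removed, Arntl ranked 8 from the lowest for Tef, 385 for Hlf, 2223 for Bhlhe40 and 269 for Bhlhe41, against 2, 5, 17 and 87 in the log2 ratios. The 4 genes most like Dbp were then others, namely Dpep2 (0.888), Gsg1 (0.782), Ube2e2 (0.744) and Zfp938 (0.739). These r values are descriptions, since the largest of many always stand out.

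The other genes of the clock were taken from a list. Of the 5 activators reported here, Arntl fell by 1.30 at D2 and 1.26 at D3 (limma adjusted p = 0.00733 and 0.00381; -0.62 at D1, limma adjusted p = 0.186). Clock, Npas2, Rora and Rorb were not called at any dose, although 3, 3 and 5 of the 5 activators had an unadjusted p under 0.05 at D1, D2 and D3, and at D3 all 5 were below D0. Npas2 was well above background in 4 D0 mice and 1 dosed mouse, so its test rests on D0. Of 7 tested repressors, 1 was called higher at D1 (Nr1d2, 0.59) and 3 at D2 and at D3 (Nr1d2 by 0.82 and 0.77, Per2 by 0.88 at each dose, Per3 by 0.76 and 0.64), beside 0.591%, 0.434% and 1.2% of all tested probes. An unadjusted p under 0.05 was found for 4, 6 and 5 of these 7. Per1, Cry2, Nr1d1 and Ciart were not called, and Cry1 was well above background in 0 of 18 mice. The median log2 fold change of the repressors was 0.39, 0.46 and 0.42. These comparisons share their D0 mice with those of the members.

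Nfil3 (NM_017373), the repressor that competes with the PAR bZIP factors for D-boxes, moved against them. Its log2 ratio was -1.63, -1.15, -1.50, -1.17 and -1.70 in the D0 mice. It was -2.21, -1.36, -1.98 and -1.62 in the D1 mice. The D2 mice had -2.04, -2.56, -2.24, -2.40 and -2.57, and the D3 mice -2.21, -2.06, -1.94 and -2.13, all below every D0 mouse. Nfil3 fell by 0.93 at D2 (SE 0.15, limma adjusted p = 0.00182) and by 0.66 at D3 (SE 0.16, limma adjusted p = 0.01). Its D1 difference was -0.36 (SE 0.16, limma adjusted p = 0.204). Among all tested probes, 0.193% were called lower at D2 and 1.22% at D3, and 1.61% and 7.17% had every dosed mouse below every D0 mouse.

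Known targets of the PAR bZIP factors, mostly enzymes of drug and heme metabolism described in liver, were not called. Of 9 listed genes 7 were tested, and 0 were called at any dose, in either direction, by limma, where 1, 0 and 2 passed the adjusted p alone and 1, 2 and 2 had an unadjusted p under 0.05 at D1, D2 and D3 (19.8%, 14.7% and 26.1% of all tested probes). Their median log2 fold change was -0.16, 0.08 and -0.19. Cyp2c37 was lower by fitted values of -0.32 at D1 and -0.28 at D3 (limma adjusted p = 0.0463 and 0.0426), and Pdxk, pyridoxal kinase, was 0.39 above D0 at D3 (limma adjusted p = 0.0148), all short of 1.5-fold. Por, the P450 reductase, differed by -0.01, 0.12 and -0.07. Of 3 other clock-controlled genes, Wee1, the kinase that holds cells before mitosis, rose by 0.94 at D2 and 1.00 at D3, and Usp2, a ubiquitin protease, rose by 0.73 at D2 and was 0.53 above D0 at D3 (limma adjusted p = 0.0627, not called). The third, Nampt, an enzyme of NAD synthesis, differed by 0.10, -0.02 and -0.12 and was not called. Of 4 genes of clock protein turnover, 0 were called by limma at any dose, and 1, 1 and 0 had an unadjusted p under 0.05.

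**Figure D4:**
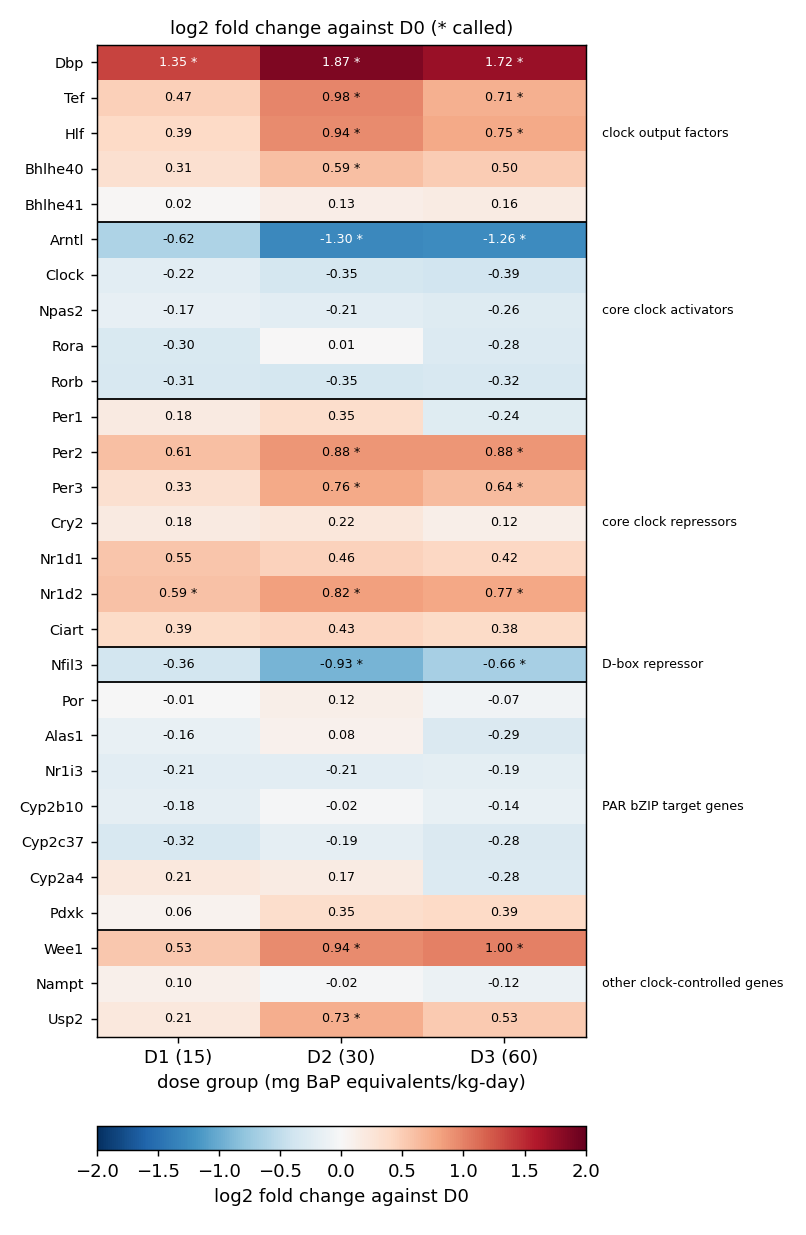
Log2 fold change against D0 at each dose (columns, with the dose in mg BaP equivalents/kg-day) for the 5 members and the tested clock genes by list (rows), 1 probe per gene, with stars for called changes and color from blue (lower) to red (higher). The PAR bZIP members, Per2, Per3, Nr1d2 and Wee1 are red at D2 and D3, Arntl and Nfil3 are blue, and the 7 target genes are pale.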

How the data were processed

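Lung RNA (Cy5) and reference RNA (Cy3) of 18 mice were measured on 19 Agilent arrays without dye swaps, which leaves dye bias open. The deposited scanner files hold spot intensity as median pixel brightness, without normalization, and the deposited series table holds log2 ratios normalized by the authors. Per the file headers, Feature Extraction 11.0.1.1 and scanner G2505C were used, unlike the release and model in the study's methods. Median signals without background subtraction were normalized within arrays by loess (span 0.3), control spots (3671 of 62976) and outlier spots were left out, and spots of a probe were averaged. These ratios correlated with the deposited log2 table at 0.995 to 0.998 per array. Probes were tested where red was well above background in at least 4 mice of a group. Symbols came from RefSeq (GRCm38.p6), which matched 21465 of 22765 RefSeq-type identifiers.

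All groups were fitted in 1 model with limma 3.58.1 (R 4.3.3). The study's MAANOVA was not installed. Correlations were tested by permutation in numpy 2.4.6 and ratios of genes by permutation in scipy 1.17.1. Where 1 value per gene is given, it is from the probe with the brightest red signal. Scripts were tested on simulated data. The members, lists and alternatives were chosen with earlier results of these data known. An item of the lists is not reported here. The rule for named genes took all member probes, the listed genes and the 4 most like and 2 most unlike genes per member. Alternatives were median centring, processed signals, normexp (offset 50), red alone, the deposited table, other filters, slide as a block, mouse 23 in D1, 1 array of mouse 35, and leaving out each mouse. The number of arrays limits the precision.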

Additional observations from a re-analysis of the deposited data

Results flagged for a closer look

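Tef in D1 was flagged because 1 mouse lay far from the others of its group. Mouse 25 had a log2 ratio of 1.69, and the nearest of the other 3 D1 mice had 2.26, so this gap made up 0.985 of the group's range, above Dixon's critical value of 0.829 for 4 samples. It was 1 of 28 groups of values checked (7 probes in 4 groups), and chance flags about 1 in 20 groups. Mouse 25 lay on slide 3 and also had the lowest D1 values of Dbp, Hlf and Bhlhe41 and the highest D1 value of Arntl (-0.05).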

How the results depend on the processing

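The Dbp changes at D2 and D3 kept their calls under every alternative run (1.73 to 2.11 and 1.58 to 1.96 without any 1 mouse). Median centring, which moved the median of all probes by 0.17 at D1, 0.12 at D2 and 0.06 at D3, ended the calls of Dbp at D1 (1.63, and 1.63 on the second probe), Tef at D2 and D3 (1.14 and 0.89), Hlf at D2 and D3 (1.03 and 0.79) and Bhlhe40 at D2 (0.77). It left 2 member probes called at 1 dose or more, 1 trend call, and 12, 18 and 98 probes called at D1, D2 and D3. The 5 correlations with Arntl were then -0.455, -0.315, -0.269, 0.0159 (Bhlhe40, reversed) and -0.109. With processed signals 638, 346 and 1366 probes were called, Bhlhe40 passed at D3 (0.60) and Hlf did not (0.79). The D2 call of Bhlhe40 was lost with red alone (0.56) and with mouse 23 in D1 (0.55). Bhlhe41 at D1 reversed with red alone (-0.0194). Without the mice on slide 3 alone, chosen after seeing the data, Tef was called at D1 (0.69). With group means removed, the correlations of Hlf (-0.459), Bhlhe40 (-0.230) and Bhlhe41 (-0.550) did not pass. The cause of these shifts was not tested.

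Without any 1 mouse, the change was 0.53 to 0.69 for Bhlhe40 at D2, 0.40 to 0.60 for Bhlhe40 at D3, 0.60 to 0.93 for Hlf at D3, -0.0663 to 0.118 for Bhlhe41 at D1 and -0.02 to 0.17 for its second probe at D1, where leaving out D0 mouse 4 gave -0.001495 and D1 mouse 21 gave -0.02349. Trend calls numbered 2 to 4, with 2 without D3 mouse 31 or 34. For the ratio of Tef to Hlf, the D2 difference reversed with processed signals (-0.0448) and red alone (-0.143), and the D3 difference with median centring (0.0927) and the deposited table (0.0424), none past the threshold. In all, 972 values kept their direction and side of the threshold, 29 were weaker, 7 stronger, 12 reversed and 10 moved. No paired analysis was possible because no mouse number is shared between groups, and slide was used as a block instead, which changed no member call.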
